A study of Mus musculus with 2 samples.

Results

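The cells described here were the 1107 cells with the highest joint expression of Lpl, Vegfc, Dusp9, Chst7 and Jdp2 among 11069 cells that passed a macrophage gate, out of 20512 cell barcodes in a pair of libraries of tumour leukocytes. A cell passed the gate with at least 5000 UMIs (unique molecular identifiers, 1 for each captured RNA molecule), at most 10% mitochondrial UMIs, at most 2 UMIs of Col3a1 and Col1a2 together, no UMI of Cd3e and at least 5 of C1qa, C1qb, C1qc, Adgre1, Apoe, Mrc1, Trem2, Ms4a7 and Cd68 detected. Gated cells were ranked by the mean log1p of UMIs per 10000 over the 5 score genes, and the top 10% of both libraries pooled were taken, which set a lowest score of 0.8345. The levels of the score genes and of the gate genes were therefore fixed in part by the choice and are given as a description. Summed over all of them, the cells went against a plain macrophage name: 8 of the 9 gate genes were lower in them than in other gated cells, and 12 of 12 listed genes of osteoclasts were higher. Levels differed between clusters of these cells, as given below. They are called high-scoring cells below.

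The libraries came from CD45+ cells, sorted alive from dissociated tumours of mice that carried AB1-HA mesothelioma cells, and were made with the 10x Genomics 3′ v3.1 chemistry. CD45 is the surface phosphatase of leukocytes, and AB1-HA is a mouse mesothelioma line. The groups were tumours under an anti-VEGF antibody (1 library, 8825 barcodes) and tumours under a control antibody (1 library, 11687 barcodes). The strain, age and number of mice and the dose and time of the antibodies are not given in the sources used here. With 1 library in each group there was no replicate and no test, so every interval below covers counting error only. Neither mouse-to-mouse nor library-to-library variation can be told apart from the antibody.

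Lpl encodes lipoprotein lipase, which frees fatty acids from lipoprotein triglycerides and is made by many macrophages. Vegfc encodes a ligand of VEGF receptor 3 that drives growth of lymphatic vessels. Dusp9 encodes a phosphatase that switches off MAP kinases, Chst7 a sulfotransferase that acts on chondroitin chains, and Jdp2 a basic leucine zipper protein that represses AP-1 and is known in mice for its role in osteoclast formation. Osteoclasts are bone-resorbing cells of the macrophage lineage. They form under M-CSF and RANKL through the transcription factor Nfatc1, with Mitf and Spi1 as partners, and they are known by acid phosphatase (Acp5), cathepsin K (Ctsk), the proton pump subunit Atp6v0d2, the fusion proteins Dcstamp and Ocstamp and the metalloprotease Mmp9. Cells with these genes have been described outside bone, so their RNA alone does not make a cell an osteoclast.

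Upstream sequences of 3 genes that the description turns on are shown because their RNAs were high in the same cells: Acp5 and Ctsk, which the score did not use, and Jdp2, which it did. Each is the 250 bases before an annotated RefSeq start on GRCm38.p6, 5′ to 3′ on the strand of the gene, in lower case with any match to TGANTCA (an AP-1 site), CACATG (an E-box core bound by MITF) or TCACATGA (a longer form that contains CACATG) in capitals, searched on both strands. The windows are chr9:22130599-22130848 on the minus strand for Acp5, chr3:95498960-95499209 on the plus strand for Ctsk and chr12:85598855-85599104 on the plus strand for Jdp2.
Acp5: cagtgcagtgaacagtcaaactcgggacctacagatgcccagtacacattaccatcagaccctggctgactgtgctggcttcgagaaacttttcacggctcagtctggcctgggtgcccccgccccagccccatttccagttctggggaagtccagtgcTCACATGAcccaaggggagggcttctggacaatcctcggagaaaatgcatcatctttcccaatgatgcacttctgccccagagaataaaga
Ctsk: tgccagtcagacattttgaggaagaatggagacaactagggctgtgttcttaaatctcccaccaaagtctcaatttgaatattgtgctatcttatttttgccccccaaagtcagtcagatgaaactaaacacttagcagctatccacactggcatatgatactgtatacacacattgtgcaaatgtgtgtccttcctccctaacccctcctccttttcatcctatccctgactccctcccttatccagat
Jdp2: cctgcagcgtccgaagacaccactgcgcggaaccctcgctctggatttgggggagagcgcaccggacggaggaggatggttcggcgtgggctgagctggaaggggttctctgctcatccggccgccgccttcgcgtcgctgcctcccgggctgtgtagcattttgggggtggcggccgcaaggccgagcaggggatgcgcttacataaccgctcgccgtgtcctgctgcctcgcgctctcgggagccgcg
The capitals in the Acp5 window mark 1 TCACATGA, whose CACATG begins 90 bases before the start. It is the window of 1 of 3 annotated starts of Acp5, shown because it holds the match, and the windows of the other two starts held none of the motifs. TCACATGA was in 278 of 32851 RefSeq windows of that length (0.846%), CACATG in 4025 (12.2%) and TGANTCA in 2217 (6.75%). None of the motifs was found in the single Ctsk window or in any of 3 Jdp2 windows. Windows of Vegfc, Chst7 and Slc9b2, 1 for each gene, were searched too and held none. The sequence just after the Ctsk start was not found in the reference transcripts searched, while those of the Acp5 and Jdp2 starts shown were found. A match in letters is no evidence of binding.

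High-scoring cells were fewer in the anti-VEGF library. They were 349 of 5020 gated cells there (6.95%, exact 95% interval 6.26 to 7.69), against 758 of 6049 in the control library (12.5%, 11.7 to 13.4), a difference of -5.58 percentage points. They were also deeper than the cells around them. Their median was 34101 UMIs, against 24113 in other gated cells of the anti-VEGF library, and 30285 UMIs, against 24404 in other gated cells of the control library. No high-scoring cell shared its barcode sequence with the other library, although 35 barcodes occurred in both.

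Levels are given as CPM, the counts of a gene summed over the cells named and scaled to their total UMIs, and compare cells, not genes. Jdp2 was at 1082 CPM in high-scoring cells and 124.5 CPM in other gated cells of the anti-VEGF library, and at 981.5 CPM in high-scoring cells and 196.6 CPM in other gated cells of the control library. Lpl was at 542.9 CPM in high-scoring cells and 87.8 CPM in other gated cells under anti-VEGF, and at 528.6 CPM in high-scoring cells and 108.8 CPM in other gated cells under control antibody. Nearly every high-scoring cell held both RNAs. The remaining score genes were detected in fewer of them. Dusp9 was at 42.3 CPM in high-scoring cells and 5.76 CPM in other gated cells under anti-VEGF, against 44.4 CPM in high-scoring cells and 7.21 CPM in other gated cells under control antibody. Vegfc was at 35.5 and Chst7 at 29.5 CPM in high-scoring cells under anti-VEGF, with 11.04 CPM of Vegfc and 11.9 CPM of Chst7 in other gated cells. Under control antibody Vegfc was at 33.3 and Chst7 at 50.8 CPM in high-scoring cells, with 8.13 CPM of Vegfc and 18.5 CPM of Chst7 in other gated cells. All 5 genes were detected in 182 high-scoring cells (16.4%), 4 of them in 414 (37.4%), 3 in 375 (33.9%) and 2 in 136 (12.3%).

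Shares at equal depth describe the same choice of cells. When every cell was thinned to 5000 UMIs, Jdp2 had a UMI in 97.4% of high-scoring and 26.0% of other gated cells under anti-VEGF, and in 96.3% of high-scoring and 33.9% of other gated cells under control antibody. Lpl was in 85.4% of high-scoring and 19.0% of other gated cells under anti-VEGF, and in 85.8% of high-scoring and 24.3% of other gated cells under control antibody. Unthinned, Lpl was in 99.7% of high-scoring cells under anti-VEGF and 99.2% under control antibody. Vegfc, Dusp9 and Chst7 were each in 15.3% to 23.8% of thinned high-scoring cells and in 1.93% to 8.45% of thinned other gated cells. Free RNA was gauged in T cells, which should lack these genes (26 anti-VEGF cells with a median of 9784 UMIs and 15 control cells with 7386). None held Lpl, Vegfc, Dusp9 or Chst7 after thinning, which allows shares of up to 11.5% under anti-VEGF and 20% under control antibody, and Jdp2 was in 1 T cell of each library. Collagen-expressing cells were more numerous and deeper (183 anti-VEGF cells with a median of 32860 UMIs and 74 control cells with 29600). Jdp2 was in 15.9% of them under anti-VEGF and 12.2% under control antibody, and Dusp9 in 2.19% under anti-VEGF and 6.76% under control antibody. Dusp9 in other gated cells (1.93% under anti-VEGF and 2.78% under control antibody) was no higher than in collagen-expressing cells. Unthinned, collagen-expressing cells held 5.615 CPM of Dusp9 and 1.062 CPM of Lpl under anti-VEGF. Under control antibody they held 11.17 CPM of Dusp9 and 2.896 CPM of Lpl. Whether their Dusp9 was free RNA or their own was not tested, so the pooled share in other gated cells cannot be set against background.

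**Figure D1:**
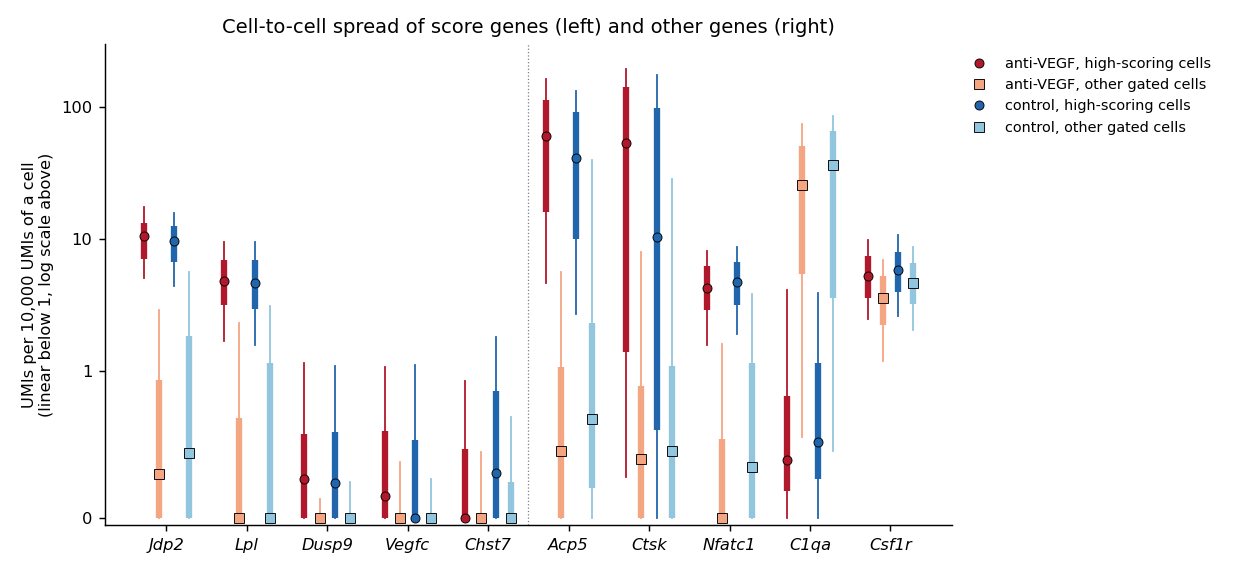
Levels in single cells as UMIs per 10,000 UMIs of the cell (linear below 1, log scale above), in high-scoring cells (circles) and other gated cells (squares) of each library; points are medians, thick bars quartiles and thin bars the 10th to 90th percentile. Jdp2, Lpl and Nfatc1 lie in narrow ranges in high-scoring cells, the quartiles of Ctsk run from 1.40 to 142 in the anti-VEGF library, and C1qa is low.

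A gene left out of the score was still higher in the cells that the other 4 chose. The score genes were taken with earlier results of these data known, so these values are a description and no independent test. Cells chosen without Jdp2 held 678 CPM of it, against 164 CPM in the rest, under anti-VEGF, and 665 CPM, against 254 CPM in the rest, under control antibody. Cells chosen without Lpl held 356 CPM of it, against 108 CPM in the rest, under anti-VEGF, and 332 CPM, against 142 CPM in the rest, under control antibody. The separation was smaller for the ligand and the sulfotransferase. Vegfc was at 24.8 CPM in cells chosen without it and 12.05 CPM in the rest under anti-VEGF, and at 22.8 CPM in chosen cells and 9.92 CPM in the rest under control antibody. Chst7 was at 20.9 CPM in chosen cells and 12.6 CPM in the rest under anti-VEGF, and at 35.1 CPM in chosen cells and 21.2 CPM in the rest under control antibody.

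The 5 genes did not mark 1 kind of cell. Clusters of all gated cells, made without the score genes, put 1070 high-scoring cells (96.7%) into 4 of 16 clusters, which held 32.4% of gated cells. Cluster 5, led by Mt3, Mmp9, Oscar, Ocstamp and Ctsk, held 437 high-scoring cells (39.5%), and cluster 8, led by Trip6, Abcb4 and Nfatc1 beside Jdp2, held 287 (25.9%). Cluster 6, led by histone genes, Aurkb and Ube2c, held 221 (19.96%), and cluster 3, led by Pde4d, Gstt1 and Mcm6, held 125 (11.3%). Over all gated cells of these clusters, high-scoring or not, the score genes took different orders. Jdp2 in the anti-VEGF library was at 951 CPM in cluster 5, 935 CPM in cluster 8, 469 CPM in cluster 6 and 209 CPM in cluster 3. Vegfc ran the other way, at 10.4, 31.3, 42.8 and 38.5 CPM in clusters 5, 8, 6 and 3. Chst7 was at 5.19, 32.7, 31.5 and 34.0 CPM in the same clusters. Lpl followed Jdp2, with 480, 416, 261 and 180 CPM. The control library had the same contrast: Vegfc was at 9.13 CPM and Chst7 at 7.35 CPM in cluster 5, against 25.3 to 30.1 CPM of Vegfc and 40.7 to 52.7 CPM of Chst7 in clusters 8, 6 and 3.

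**Figure D2:**
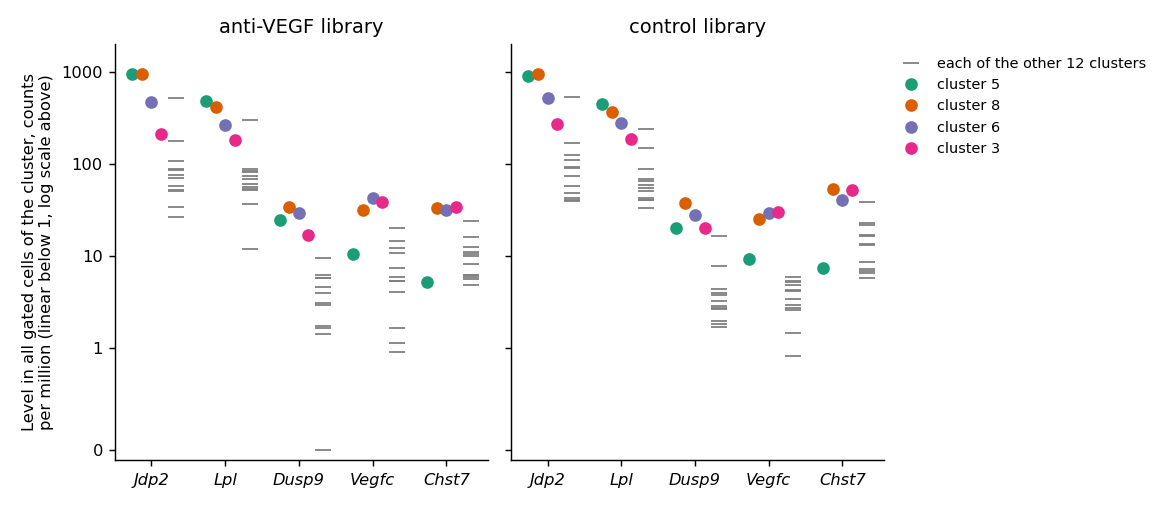
Summed level of each score gene in all gated cells of clusters 5, 8, 6 and 3 (coloured points) and in each of the other 12 clusters (grey dashes), in CPM, linear below 1 and log scale above, by library. Jdp2 and Lpl are highest in clusters 5 and 8, while Vegfc and Chst7 are low in cluster 5 (10.4 and 5.19 CPM in the anti-VEGF library).

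High-scoring cells were set against the other gated cells within each library, and a gene was called at a ratio of at least 1.5, or at most its inverse, with the interval off 1 and the same direction in both libraries. Of 12890 genes tested, 1203 (9.33%) were higher and 2037 (15.8%) lower in high-scoring cells. These cells were chosen on measured RNA, so the counts describe the choice and are no test. The median log2 ratio over all genes tested was 0.03 under anti-VEGF and near 0 (-0.000673) under control antibody.

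Genes of osteoclasts led the higher genes. All 12 on the list were called higher in the pooled cells, with a median log2 ratio of 2.43 under anti-VEGF and 1.57 under control antibody. Not every gene was higher in each cluster. In high-scoring cells of clusters 5, 8, 6 and 3, Ctsk was at 14310, 2858, 1748 and 132 CPM under anti-VEGF. Under control antibody it was at 13220, 1488, 1553 and 93.1 CPM. Mmp9 under control antibody was at 4062, 256, 297 and 30.5 CPM, against 523.6 CPM in other gated cells. Nfatc1 was at 263.6 CPM or more in each of these clusters and libraries. Acp5, which encodes tartrate-resistant acid phosphatase, was at 7000 CPM in high-scoring cells and 1057 CPM in other gated cells under anti-VEGF (ratio 6.62), and at 5614 CPM in high-scoring cells and 1508 CPM in other gated cells under control antibody (3.72). Ctsk, the collagen-cleaving protease of the resorption pit, was at 7702 CPM in high-scoring cells and 1214 CPM in other gated cells under anti-VEGF, and at 5691 CPM in high-scoring cells and 1572 CPM in other gated cells under control antibody. Nfatc1, the transcription factor at the head of the programme, was at 458 CPM in high-scoring cells and 73.6 CPM in other gated cells under anti-VEGF, and at 511 CPM in high-scoring cells and 134.6 CPM in other gated cells under control antibody. Its partner Mitf was at 119 CPM in high-scoring cells and 47.1 CPM in other gated cells under anti-VEGF, and at 124 CPM in high-scoring cells and 52.1 CPM in other gated cells under control antibody. Under anti-VEGF the ratio was 5.88 for Atp6v0d2, 5.95 for Ocstamp, 6.03 for Mmp9 and 4.67 for the collagen-sensing receptor Oscar. Under control antibody it was 3.77 for Atp6v0d2, 3.94 for Ocstamp, 3.16 for Mmp9 and 2.40 for Oscar. Tnfrsf11a, the receptor for RANKL, had the smallest ratios under anti-VEGF among the 12, at 1.91, with 1.72 under control antibody. Calcr, the calcitonin receptor, was near the floor, at 1.02 CPM in high-scoring cells and 0.375 CPM in other gated cells under anti-VEGF and at 1.33 CPM in high-scoring cells and 0.418 CPM in other gated cells under control antibody.

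Among the 12 genes furthest above other gated cells were Spry1, Cyp2s1, Kbtbd11, Rufy4, Mt3, Ppp1r1a, Ocstamp, Nfatc1, Atp6v0d2, Acp5 and Slc9b2. Spry1, a brake on receptor tyrosine kinase signalling, was first, at 51.7 CPM in high-scoring cells and 7.11 CPM in other gated cells under anti-VEGF, and at 51.7 CPM in high-scoring cells and 10.4 CPM in other gated cells under control antibody. Slc9b2, a sodium/proton exchanger known from osteoclasts, was at 595 CPM in high-scoring cells and 103 CPM in other gated cells under anti-VEGF, and at 519 CPM in high-scoring cells and 141 CPM in other gated cells under control antibody. Rufy4, an adaptor of lysosome traffic, had a ratio of 7.70 under anti-VEGF and 4.20 under control antibody. Mt3, a metallothionein, had a ratio of 6.39 under anti-VEGF and 4.10 under control antibody. Rufy4 and Mt3 were lower, not higher, in high-scoring cells of at least 1 library once the top 20% of gated cells by a score of osteoclast genes were left out, and Mt3 also when the score genes were scaled by their SD.

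These RNAs varied strongly from cell to cell. The median high-scoring cell held 60.7 UMIs of Acp5 per 10000 under anti-VEGF and 41.2 under control antibody, while the median other gated cell held 0.457 under anti-VEGF and 0.676 under control antibody. Ctsk had a median of 53.6 in high-scoring cells under anti-VEGF and 10.4 under control antibody, and its quartiles ran from 1.40 to 142 under anti-VEGF and from 0.597 to 98.9 under control antibody. Nfatc1 was far more even, with a median of 4.23 and quartiles of 2.89 and 6.26 under anti-VEGF, and a median of 4.74 and quartiles of 3.13 and 6.75 under control antibody. Acp5 was also in T cells after thinning (9 of 26 under anti-VEGF and 11 of 15 under control antibody), at 90.6 CPM under anti-VEGF and 93.6 CPM under control antibody, so low Acp5 counts in a cell are not read as expression. The same holds for Ctsk, at 40.3 CPM in T cells under anti-VEGF and 78.0 CPM under control antibody. It holds for Mmp9 too, at 33.6 CPM under anti-VEGF and 31.2 CPM under control antibody. A separate top 10%, taken by a score of Acp5, Ctsk, Atp6v0d2, Calcr and Dcstamp, held 462 of the 1107 high-scoring cells (41.7%). Top 10% sets for genes of hypoxic, resident-like, MHC class II-high and Lyz1-high cells held 1, 3, 7 and 3 of them.

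**Figure D3:**
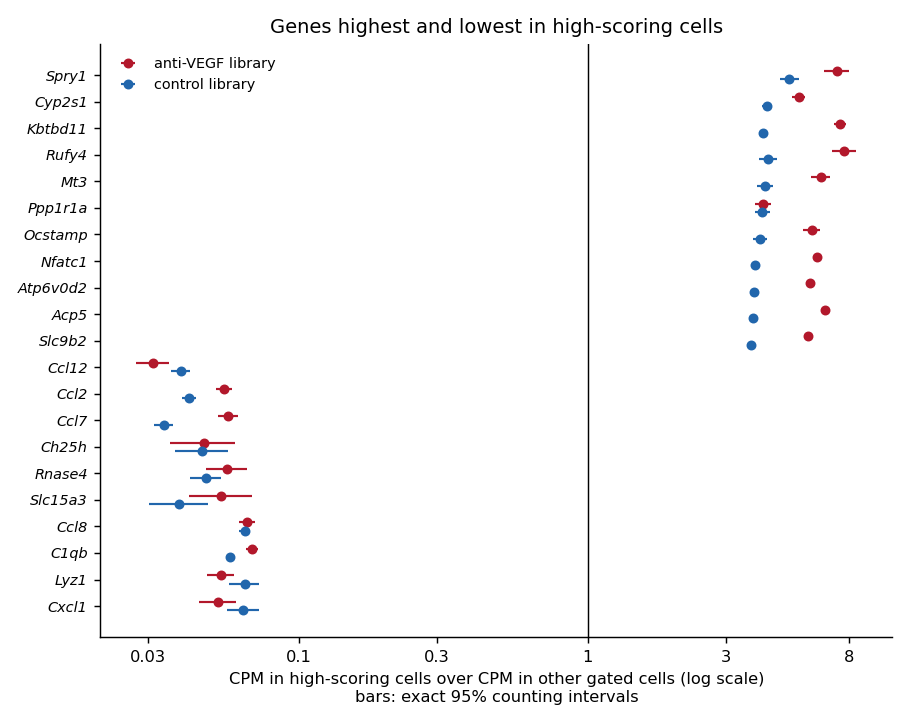
Ratio of CPM in high-scoring cells over CPM in other gated cells (log scale, exact 95% counting intervals) in the anti-VEGF and control libraries, for 11 of the 12 genes highest and for the 10 lowest in high-scoring cells. The 11 upper genes lie at 3.68-fold or more in both libraries and all 10 lower ones at 0.0689 or less.

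Genes of macrophages were low. Csf1r, the M-CSF receptor that macrophages and osteoclast precursors share, was an exception, at 545 CPM in high-scoring cells and 401 CPM in other gated cells under anti-VEGF, and at 598 CPM in high-scoring cells and 505.5 CPM in other gated cells under control antibody. Cd68, a lysosomal membrane protein of both lineages, was also not called, at 771 CPM in high-scoring cells and 799 CPM in other gated cells under anti-VEGF. C1qa, a chain of complement C1q, was at 223 CPM in high-scoring cells and 3153 CPM in other gated cells under anti-VEGF, and at 202 CPM in high-scoring cells and 3788 CPM in other gated cells under control antibody. Mrc1, the mannose receptor, was at 24.6 CPM in high-scoring cells and 292 CPM in other gated cells under anti-VEGF, and at 20.4 CPM in high-scoring cells and 368 CPM in other gated cells under control antibody. Of 14 macrophage genes outside the gate, 11 were lower, with a median log2 ratio of -2.79 under anti-VEGF and -2.98 under control antibody. Csf1r, Tyrobp and Laptm5 were the 3 not called.

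Few high-scoring cells would have met the gate at a low depth. After thinning to 5000 UMIs, at least 5 gate genes remained in 65 of 349 high-scoring cells (18.6%) under anti-VEGF and 169 of 758 (22.3%) under control antibody, against 83.5% of other gated cells under anti-VEGF and 81.8% under control antibody. Exactly 5 gate genes had been detected in 136 high-scoring cells (39.0%) and 6.21% of other gated cells under anti-VEGF, and in 241 high-scoring cells (31.8%) and 6.67% of other gated cells under control antibody. When the gate itself was applied to thinned cells and the top 10% were taken again, a setting chosen after seeing the data, C1qa in high-scoring cells was at 1467 CPM under anti-VEGF and 1566 CPM under control antibody, while Acp5 was at 3781 CPM under anti-VEGF and 3180 CPM under control antibody.

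Chemokines were 5 of the 10 lowest genes (Ccl12, Ccl2, Ccl7, Ccl8 and Cxcl1). Of 11 CC chemokines, 10 were lower and Ccl9 was not called. Ccl12, a monocyte attractant, was at 18.0 CPM in high-scoring cells and 577 CPM in other gated cells under anti-VEGF, and at 29.6 CPM in high-scoring cells and 761 CPM in other gated cells under control antibody. Ccl2 was at 74.0 CPM in high-scoring cells and 1345 CPM in other gated cells under anti-VEGF, and at 50.5 CPM in high-scoring cells and 1211 CPM in other gated cells under control antibody. Ch25h, Rnase4, Slc15a3, Lyz1 and Cxcl1 were each at 0.0648 or less of the level in other gated cells in both libraries. Antigen presentation and interferon genes were low too: 9 of 9 genes of MHC class II and 18 of 20 interferon-response genes were lower. H2-Aa, an MHC class II chain, was at 119 CPM in high-scoring cells and 824 CPM in other gated cells under anti-VEGF, and at 107.5 CPM in high-scoring cells and 885 CPM in other gated cells under control antibody. Of 18 genes of resident-like macrophages 17 were lower, and of 14 genes of an arginase- and Spp1-expressing state 13 were lower while Mmp14 was higher.

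For the lists around each score gene, the counts stand beside shares of 9.33% higher and 15.8% lower over all genes tested, and counts of higher genes near that share say nothing particular of a list. Around Lpl, 2 of 25 genes of lipid uptake and storage were higher (Acsl3 and Pnpla2) and 10 lower. Fabp5, a fatty acid carrier, was at 222 CPM in high-scoring cells and 504 CPM in other gated cells under anti-VEGF, and at 194 CPM in high-scoring cells and 521.5 CPM in other gated cells under control antibody. Cd36, a fatty acid transporter, had a ratio of 0.176 under anti-VEGF and 0.342 under control antibody. Of 14 measured genes that regulate or bind the lipase, none was higher and 5 were lower, among them the receptor Lrp1 (ratio 0.275 under anti-VEGF and 0.277 under control antibody). Cholesterol synthesis differed, with 5 of 15 genes higher (Hmgcs1, Idi1, Fdps and Lss among them), none lower and a median log2 ratio of 0.99 under anti-VEGF and 0.53 under control antibody. Idi1, an isomerase of the pathway, was at 66.5 CPM in high-scoring cells and 26.6 CPM in other gated cells under anti-VEGF, and at 44.3 CPM in high-scoring cells and 29.5 CPM in other gated cells under control antibody.

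Around Vegfc, 10 ligands and receptors of the VEGF and PDGF families could be tested, of which 2 were higher and 5 lower. Vegfa, the ligand that the antibody binds, was at 105 CPM in high-scoring cells and 171.5 CPM in other gated cells under anti-VEGF, and at 71.6 CPM in high-scoring cells and 129 CPM in other gated cells under control antibody. Nrp2, the co-receptor for VEGF-C, was at 616 CPM in high-scoring cells and 228 CPM in other gated cells under anti-VEGF, and at 651 CPM in high-scoring cells and 259 CPM in other gated cells under control antibody. Pdgfb was the other higher gene, with a ratio of 1.85 under anti-VEGF and 1.80 under control antibody. Nrp1, Flt1, Kdr and Pdgfc were lower beside Vegfa. Flt4, the receptor of VEGF-C, had too few UMIs to test.

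Around Dusp9, 1 of 13 dual-specificity phosphatases was higher and 6 were lower. Dusp4 was the higher one, at 79.9 CPM in high-scoring cells and 48.4 CPM in other gated cells under anti-VEGF, and at 61.5 CPM in high-scoring cells and 39.7 CPM in other gated cells under control antibody. Dusp1 was at 97.4 CPM in high-scoring cells and 454 CPM in other gated cells under anti-VEGF, and at 88.2 CPM in high-scoring cells and 341 CPM in other gated cells under control antibody. Of 20 feedback and target genes of ERK signalling, 3 were higher (Spry1, Spred1 and Dusp4) and 9 lower, such as Ier3 with a ratio of 0.0840 under anti-VEGF and 0.0923 under control antibody.

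Around Jdp2, 1 of 18 AP-1, ATF and MAF factors was higher and 9 were lower. Fosl2, a FOS-family factor, was the higher one, at 286 CPM in high-scoring cells and 125 CPM in other gated cells under anti-VEGF, and at 288 CPM in high-scoring cells and 149 CPM in other gated cells under control antibody. Atf3 was the lowest by ratio of the 9, at 22.4 CPM in high-scoring cells and 317.5 CPM in other gated cells under anti-VEGF, and at 22.9 CPM in high-scoring cells and 385 CPM in other gated cells under control antibody. Around Chst7, 7 of 30 measured genes of proteoglycans and their sulfation were higher and 11 lower. The higher ones were mostly of heparan sulfate: Ext1 and Ext2, which build its chain, and Ndst1 and Hs2st1, which sulfate it, beside Chst11, Chpf and the core protein Sdc1. Ext1 was at 143 CPM in high-scoring cells and 34.4 CPM in other gated cells under anti-VEGF, and at 154 CPM in high-scoring cells and 49.9 CPM in other gated cells under control antibody. Srgn, the core protein serglycin, was lower, with a ratio of 0.0858 under anti-VEGF and 0.0850 under control antibody.

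Mitochondrial genes of the nucleus were modestly higher. Of 20 respiratory chain genes 10 were higher and none lower, with a median log2 ratio of 0.84 under anti-VEGF and 0.59 under control antibody. Sdhb, a subunit of complex II, was at 438 CPM in high-scoring cells and 182 CPM in other gated cells under anti-VEGF, and at 434 CPM in high-scoring cells and 232 CPM in other gated cells under control antibody. Ppargc1b, a coactivator of mitochondrial biogenesis, was at 72.3 CPM in high-scoring cells and 13.2 CPM in other gated cells under anti-VEGF, and at 74.0 CPM in high-scoring cells and 20.9 CPM in other gated cells under control antibody. Mitochondrial UMIs had a median share of 4.14% in high-scoring cells and 3.23% in other gated cells under anti-VEGF, and of 4.07% in high-scoring cells and 3.47% in other gated cells under control antibody, and their part in these values was not tested. Of 22 proliferation genes none was called in either direction.

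Markers of other lineages were low in high-scoring cells. The 9 T cell genes summed to 1.88 CPM in high-scoring cells and 4.58 CPM in other gated cells under anti-VEGF, and to 2.66 CPM in high-scoring cells and 8.24 CPM in other gated cells under control antibody. The 8 neutrophil genes summed to 42.7 CPM in high-scoring cells and 196 CPM in other gated cells under anti-VEGF, and to 21.5 CPM in high-scoring cells and 54.0 CPM in other gated cells under control antibody. Lists for NK, B and plasma, dendritic, mast and fibroblast cells summed to between 0.161 and 6.44 CPM in high-scoring cells. The mesothelial and tumour list was the exception, at 52.3 CPM in high-scoring cells and 9.69 CPM in other gated cells under anti-VEGF and at 43.4 CPM in high-scoring cells and 11.7 CPM in other gated cells under control antibody. Cd200 alone gave 48.7 CPM of it in high-scoring cells under anti-VEGF and 41.0 CPM under control antibody, while Msln was at 0.941 CPM under anti-VEGF and 0.443 CPM under control antibody. Of its 9 genes, 5 were at 0 in high-scoring cells under anti-VEGF and 3 under control antibody. The endothelial and mural list, at 95.5 CPM in high-scoring cells and 139 CPM in other gated cells under anti-VEGF and at 90.6 CPM in high-scoring cells and 96.9 CPM in other gated cells under control antibody, was mostly Cspg4, which gave 88.3 CPM in high-scoring cells under anti-VEGF and 82.9 CPM under control antibody. No doublet caller was run.

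The change began below the threshold. When gated cells were put into 10 bins by score, Acp5 under anti-VEGF was at 423 CPM in bin 7 and 2487 CPM in bin 8. In the ninth of the bins, next to the high-scoring cells, Acp5 was at 6815 CPM under anti-VEGF and 5820 CPM under control antibody. C1qa was at 446.5 CPM in that bin and 4258 CPM in the lowest one under anti-VEGF, and at 530.1 CPM in that bin and 5945 CPM in the lowest one under control antibody. Over both libraries, the 100 cells just inside the threshold had Acp5 at 6551, Jdp2 at 834, C1qa at 418, Ccl2 at 155 and Mrc1 at 43.9 CPM. The 100 just outside had Acp5 at 7892, Jdp2 at 817, C1qa at 264, Ccl2 at 89.3 and Mrc1 at 16.3 CPM. Jdp2 was thus close on both sides, while the macrophage genes were higher just inside. The cells richest in osteoclast genes were then left out. Acp5 and Ctsk are in the score that removed these cells, so their lower levels afterwards were fixed in part by the removal. Without the top 20% by the score of Acp5, Ctsk, Atp6v0d2, Calcr and Dcstamp, which had held 861 of the high-scoring cells (77.8%), a new top 10% had Ctsk at 54.05 CPM under anti-VEGF and 45.6 CPM under control antibody, against 81.1 CPM in the remaining cells under anti-VEGF and 54.8 CPM under control antibody. T cells held 40.3 CPM of Ctsk under anti-VEGF and 78.0 CPM under control antibody, so Ctsk at these levels is not read as expression. Acp5 stayed higher in the new top 10%, at 352 CPM there and 62.5 CPM in the remaining cells under anti-VEGF. Under control antibody Acp5 was at 333 CPM there and 79.2 CPM in the remaining cells. Acp5 of the remaining cells was below its level in T cells (90.6 CPM under anti-VEGF and 93.6 CPM under control antibody). Nfatc1 was still at 175 CPM there and 27.0 CPM in the remaining cells under anti-VEGF, and at 242 CPM there and 41.9 CPM in the remaining cells under control antibody. The osteoclast list then had a median log2 ratio of 0.30 under anti-VEGF and 0.18 under control antibody. The genes called in both libraries numbered 1484 higher and 1543 lower in this setting, chosen after seeing the data.

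**Figure D4:**
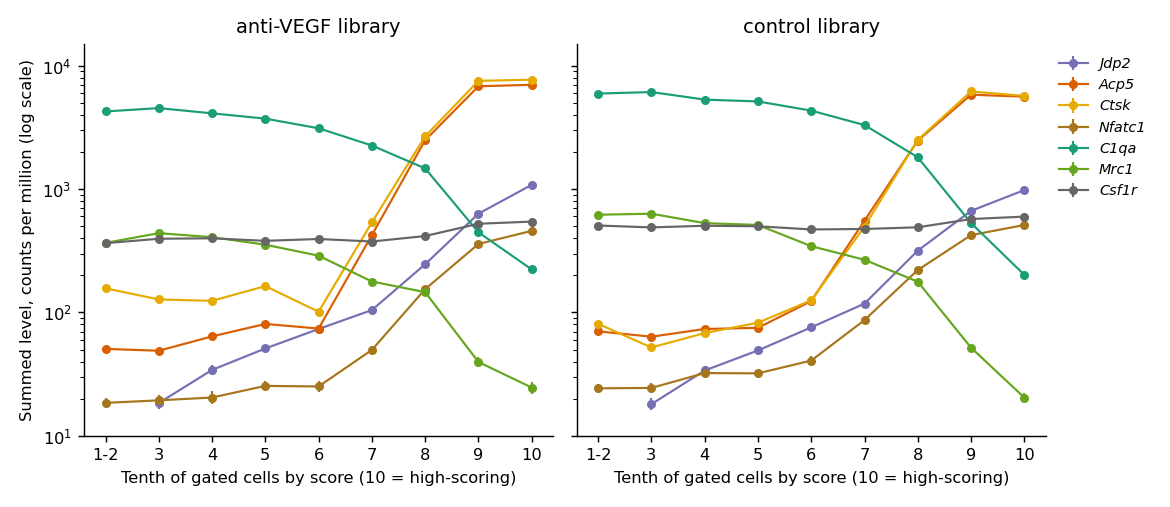
Summed level in CPM (log scale) in bins of gated cells along the score, from the lowest (where bins 1 and 2 are joined because all of their scores were 0) to the high-scoring cells (bin 10), in each library. Acp5, Ctsk and Nfatc1 climb from bin 7 to bin 9. From bin 9 to bin 10 Acp5 is nearly level under anti-VEGF (6815 and 7000 CPM). Under control antibody Acp5 (5820 and 5614 CPM) and Ctsk (6184 and 5691 CPM) are lower in bin 10. C1qa and Mrc1 fall, and Csf1r changes least (523 and 545 CPM in the last bins under anti-VEGF).

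Anti-VEGF and control libraries were then compared within high-scoring cells, with the same ratio of 1.5. Of 11074 genes tested, 242 (2.19%) were higher and 191 (1.72%) lower under anti-VEGF. In other gated cells 702 of 14037 (5.0%) were higher and 920 (6.55%) lower. The median log2 ratio over all genes was -0.03 in high-scoring cells and -0.08 in other gated cells. These counts depend on the setting: with each cell weighted equally, 406 genes were higher and 387 lower in high-scoring cells.

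The score genes chose the cells, so their values are a description. Chst7 was at 29.5 CPM under anti-VEGF and 50.8 CPM under control antibody in high-scoring cells (ratio 0.580, exact 95% interval 0.516 to 0.652), with a ratio of 0.642 in other gated cells. It was lower in high-scoring cells of each of clusters 5, 8, 6 and 3, with ratios of 0.598, 0.557, 0.825 and 0.670. Jdp2 had a ratio of 1.10, Vegfc of 1.07, Lpl of 1.03 and Dusp9 of 0.953 in high-scoring cells. In other gated cells, which the same score cut from above, Jdp2 had a ratio of 0.634.

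Bnip3, of the hypoxia list, and Slc16a3, of the glycolysis list, were higher under anti-VEGF in high-scoring cells as in the rest. Bnip3, a mitochondrial protein induced by hypoxia, was at 127 CPM under anti-VEGF and 42.9 CPM under control antibody (ratio 2.95, 2.73 to 3.19), with a ratio of 2.81 in other gated cells. It was spread over the cells: 78.8% of high-scoring cells under anti-VEGF and 57.0% under control antibody held a UMI, and the 10 richest cells held 17.1% of its UMIs under anti-VEGF and 13.8% under control antibody. Slc16a3, a lactate exporter, was at 54.2 CPM under anti-VEGF and 18.4 CPM under control antibody (2.95, 2.62 to 3.33). Bnip3 was higher in high-scoring cells of each of the 4 clusters, with ratios of 3.04, 1.98, 2.73 and 2.66 in clusters 5, 8, 6 and 3, and Slc16a3 had ratios of 3.63, 1.99, 3.05 and 3.94. Of 19 measured hypoxia-response genes 10 were higher and none lower, with a median log2 ratio of 0.55, beside 0.81 in other gated cells. Of 16 glycolysis genes 4 were higher and none lower, with a median of 0.40, beside 0.64 in other gated cells.

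Some large ratios rested on few cells. Il1b, the cytokine interleukin-1β, had the largest ratio among the genes the rule named, 4.42 (3.87 to 5.05), at 57.6 CPM under anti-VEGF and 13.04 CPM under control antibody, beside a ratio of 1.00 in other gated cells. It had a UMI in 56 of 349 high-scoring cells under anti-VEGF and 99 of 758 under control antibody, and the 10 richest cells held 85.6% of its UMIs under anti-VEGF and 58.0% under control antibody. In the clusters its ratio ran from 0.547 in cluster 8 to 14.8 in cluster 3. Cxcl10, an interferon-induced chemokine with a ratio of 2.18, had 89.0% of its anti-VEGF UMIs in 10 cells and was lower under anti-VEGF once cells with at least 2 UMIs of another lineage were left out. Spp1 and Fn1, a secreted matrix protein each, had ratios of 2.13 and 1.92, with 44.2% and 60.2% of the anti-VEGF UMIs in 10 cells. Arg1, arginase, was at 290.5 CPM under anti-VEGF and 131 CPM under control antibody, beside a ratio of 2.59 in other gated cells. Srgn and Basp1 each had a ratio of 2.10 in high-scoring cells, beside 2.08 and 1.79 in other gated cells. The 10 richest high-scoring cells held 35.8% of the anti-VEGF UMIs of Arg1, 44.5% of those of Srgn and 35.6% of those of Basp1.

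Mmp9 was the largest difference among the osteoclast genes. It was at 3416 CPM under anti-VEGF and 1653 CPM under control antibody in high-scoring cells (ratio 2.07, 2.04 to 2.09), beside a ratio of 1.08 in other gated cells. The difference was not particular to high-scoring cells. In bin 9 by score, next to them, Mmp9 was at 3429 CPM under anti-VEGF and 1971 CPM under control antibody. In bin 8 it was at 1528 CPM under anti-VEGF and 914 CPM under control antibody. A UMI of Mmp9 was in 87.1% of high-scoring cells under anti-VEGF and 72.7% under control antibody, and the 10 richest cells held 15.8% of its UMIs under anti-VEGF and 15.4% under control antibody. Within clusters 5, 8, 6 and 3 the ratio was 1.67, 2.25, 1.38 and 1.53, and high-scoring cells of cluster 5 held by far the most Mmp9, 6798 CPM under anti-VEGF and 4062 CPM under control antibody. The part of the mix of clusters in the pooled ratio was not tested. Of the 12 osteoclast genes, Oscar (1.60) and Ckb (1.59) were also higher and none was lower, with a median log2 ratio of 0.27, beside -0.30 in other gated cells. The score cut the other gated cells from above, and the part of that cut in their ratios was not tested. In cluster 5, where Oscar was at 81.7 CPM under anti-VEGF and 65.9 CPM under control antibody, its ratio was 1.24 and did not pass the threshold. Acp5 had a ratio of 1.247, and within the clusters it ran from 0.990 in cluster 3 to 1.203 in cluster 6. Nfatc1 had a ratio of 0.897, beside 0.547 in other gated cells. In bin 9 by score, Nfatc1 was at 359 CPM under anti-VEGF and 423 CPM under control antibody. Acp5 was at 6815 CPM under anti-VEGF and 5820 CPM under control antibody in that bin. Ctsk was at 7537 CPM under anti-VEGF and 6184 CPM under control antibody there.

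All 15 genes of cholesterol synthesis lay above 0 on the log2 scale in high-scoring cells, with a median of 0.49 beside 0.02 in other gated cells, and 4 were called higher (Idi1, Fdft1, Cyp51 and Msmo1). Cyp51, a lanosterol demethylase, was at 45.4 CPM under anti-VEGF and 26.9 CPM under control antibody in high-scoring cells, beside a ratio of 0.977 in other gated cells. None of the 22 proliferation genes was called, and all 22 lay below 0, with a median of -0.15, beside -0.44 in other gated cells.

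Among the genes lower under anti-VEGF that the rule named, all with at least 50 CPM in the higher library, Ccr2, the receptor for Ccl2 on monocytes, had the smallest ratio, 0.386 (0.340 to 0.437), at 23.4 CPM under anti-VEGF and 60.7 CPM under control antibody, beside 0.686 in other gated cells. It was in 67 of 349 high-scoring cells (19.2%) under anti-VEGF and 263 of 758 (34.7%) under control antibody. Its ratio was below 1 in each of the 4 clusters, at 0.311, 0.388, 0.617 and 0.423 in clusters 5, 8, 6 and 3. Sgk1, a serum-induced kinase, and Ier5, an immediate early gene, each had a ratio of 0.637, beside 0.992 and 0.848 in other gated cells. AC160336.1 had a ratio of 0.611. The other 6 genes named on this side, Itga4, Spata7, Zfp703, Hspa1a, Tmem19 and Gatm, had ratios from 0.681 to 0.737 and did not pass the threshold.

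**Figure D5:**
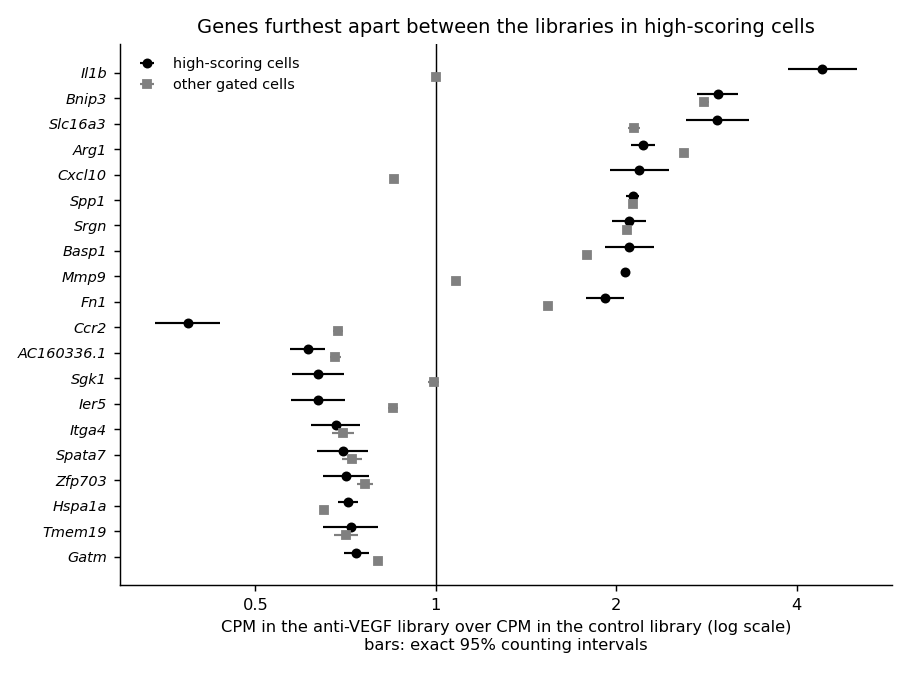
Ratio of CPM in the anti-VEGF library over CPM in the control library (log scale, exact 95% counting intervals) in high-scoring cells (black circles) and in other gated cells (grey squares), for the 10 highest and 10 lowest genes named by the rule. Il1b, Cxcl10 and Mmp9 stand apart between the cell sets (4.42, 2.18 and 2.07 in high-scoring cells beside 1.00, 0.853 and 1.08), while Bnip3, Spp1 and Srgn lie close together. Mmp9 also differed between the libraries in bin 9 by score, outside the high-scoring cells (3429 CPM under anti-VEGF and 1971 CPM under control antibody).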

How the data were processed

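The deposited values are raw UMI counts for each gene and cell barcode, without normalization, made by the authors with Cell Ranger 3.0.2 on mm10 per the submitters' processing notes, while version 3.1.0 stands in the file headers. The files hold 31053 features, of which 71 share a symbol and were not used. The anti-VEGF library had 213948867 UMIs (median 21781 for each barcode) and the control library 233687412 (median 17293). How cells were called is not stated.

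The members of the set and the gene lists were chosen with earlier results of these data known. Counts were summed over cells in each library and divided by the total (CPM). Ratios have exact conditional binomial intervals, levels exact Poisson intervals and shares exact Clopper-Pearson intervals, all at 95%; a count of 0 was given a limit of 3 counts. Genes with at least 30 UMIs over the compared sets were tested, and log2 ratios used 1 CPM as pseudocount. A gene was called at 1.5-fold with its interval off 1. Named genes were the 12 highest and 10 lowest of high-scoring cells over other gated cells, by the library nearer 0, and the 10 highest and 10 lowest of anti-VEGF over control, among genes with at least 50 CPM and a UMI in 10% of cells, besides the score genes, up to 4 members of each list, and genes given where a statement turned on them after their values were seen, such as Mitf and Ppargc1b. That ranking left out mitochondrial and ribosomal genes, those of haemoglobins and antigen receptors, predicted genes, and genes that depend on sex. Clusters used 2000 variable genes without the score genes, 30 principal components, 15 neighbours and Leiden resolution 1.0 (scikit-learn 1.9.0, leidenalg 0.10.2). No doublet caller was run; cells with 2 or more UMIs of another lineage were left out in an alternative. TMM factors came from edgeR 4.0.16 in an alternative, with no edgeR test. The ratio step was tested on simulated data. Promoter windows came from RefSeq (GRCm38.p6). Alternatives changed the UMI minimum, mitochondrial limit, top share, score genes, scale, depth, gate, weights and fold. Some named genes are not reported here.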

Additional observations from a re-analysis of the deposited data

How the results depend on the processing

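No paired analysis was possible because each group had 1 library. The lower share of high-scoring cells in the anti-VEGF library (-5.58 points) kept its sign under every setting that let the share vary: it was -2.398 points with the top 5% and -11.19 with the top 20% as members, -4.339 without Chst7 in the score, and -6.702 without the top 20% by osteoclast genes. That setting, the gate on thinned cells and the fits within clusters were chosen after seeing the data. Genes higher under anti-VEGF in high-scoring cells numbered 368 with the top 20%, 380 with the top 10% of each library, 403 with the gate on thinned cells, 406 with cells weighted equally and 107 at 2-fold. Genes lower numbered 292 without cells with 2 or more UMIs of another lineage, and 125 without Lpl in the score. They numbered 295 with the gate on thinned cells, 387 with equal weights and 85 at 2-fold. Against other gated cells, 1165 genes were lower with the gate on thinned cells and 476 higher at 2-fold. In thinned cells the ratio of a gene left out of the score was 2.783 for Lpl and 3.149 for Jdp2 in the library nearer 1. At Leiden resolution 0.5, 58.99% of high-scoring cells lay in 1 cluster. Directions that turned, as log2 ratios, were Mt3 (-0.05746 with score genes scaled by SD, -0.277 without the top osteoclast scores) and Rufy4 (-0.3393 without those scores). For anti-VEGF over control, Cxcl10 turned to -1.242 without cells with 2 or more UMIs of another lineage. The medians of the gate genes (-0.1939 thinned, -0.1447 with equal weights) and of resident-like genes (-0.01776 thinned) turned in the same comparison. The causes were not tested. Leaving out cells with 2 or more UMIs of another lineage removed 7378 gated cells, including 75.8% of high-scoring cells and 65.6% of other gated cells. The endothelial and mural list alone reached 2 UMIs in 60.2% of high-scoring and 60.6% of other gated cells under anti-VEGF. These shares are therefore no measure of doublets or mixed cells.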

Other observations

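Between the libraries, the high-scoring cells also differed in genes outside the groups above. Of 19 measured interferon-response genes 6 were higher under anti-VEGF and none was lower, with a median log2 ratio of 0.29 in high-scoring cells, beside 0.23 in other gated cells. Over all 11074 genes tested in high-scoring cells, 2.19% were higher and 1.72% lower. Rsad2 (viperin) was at 5.25 CPM under anti-VEGF and 1.65 CPM under control antibody in high-scoring cells, and Ifit1 at 11.9 CPM under anti-VEGF and 4.11 CPM under control antibody. Ccl4 was at 11.99 CPM under anti-VEGF and 33.4 CPM under control antibody, with 49.0% of its UMIs in 10 cells under anti-VEGF and 68.5% under control antibody. Each of Rsad2 and Ifit1 had a UMI in 5.01% of high-scoring cells or fewer in either library. Cluster 10, led by Ifit3, Rsad2 and Ifit2, held 2 high-scoring cells under anti-VEGF and 0 under control antibody. The part of these cells in the interferon ratios was not tested.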
